A study of Caenorhabditis elegans with 2 samples.

Results

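Of the 30000 peaks in the pooled list of a LIN-35 chromatin immunoprecipitation experiment in the nematode Caenorhabditis elegans, 219 were strong autosomal peaks between divergent genes. They were chosen by 2 criteria. The peak ranked within the 1000 highest by the authors' pooled signal. Annotated protein-coding transcripts on both strands had to start near its summit, which could be at most 1000 bp upstream or 300 bp downstream of the start. Within that rank limit 895 peaks were autosomal, and of these a further 410 had starts on one strand only and 266 had no start in reach. The rank limit used the signal, so signal values and ranks of the 219 peaks are given as a description without a test. Just inside the limit were the peaks of W04C9.6 and W04C9.2 (rank 966, signal 19.2), pas-6 and CD4.11 (rank 969, signal 19.1) and hda-11 and C35A5.8 (rank 999, signal 18.9). Just outside it were those of C03C10.7 and rnr-2 (rank 1002, signal 18.9), csc-1 and fbxc-23 (rank 1004, signal 18.9) and F56G4.6 and wbp-4 (rank 1009, signal 18.8).

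Both samples belonged to a single group, biological replicates 1 and 2 of whole young adults of mixed sex. The strain, YL468, has the allele unc-119(ed3)III and the transgene vrIs93, which holds unc-119 (+) and a LIN-35:GFP:FLAG fusion with the lin-35 3′ end behind the mex-5 promoter (pMEX-5). That promoter is active in the germ line, whereas chromatin was taken from whole animals, so how much of the signal came from germ line or soma is unknown. The labels name the antibody by lin-35 and the experiment by an eGFP fusion, and they do not say whether untagged LIN-35 was present. Read counts and sequencing depth are unknown, and the control library was not analysed here.

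LIN-35 is the worm's pocket protein, a relative of the retinoblastoma tumour suppressor. Pocket proteins do not bind DNA directly and are brought to promoters by E2F-DP factors and, in the DREAM complex, by LIN-54, which recognises a short element called the CHR. Genes that lie head to head on opposite strands share one stretch of upstream DNA, so a factor bound there sits upstream of both. In worms many annotated transcript starts are sites where a spliced leader was joined to the RNA, and the true start of transcription can lie farther upstream.

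The sequences below show the E2F words in the strongest peaks of this kind that could be shown outside exons. An E2F string was any of the words TTTCCCGC, TTTCGCGC, TTTGCCGC and TTTGGCGC on either strand within 100 bp of the summit. Each line gives 60 bases of WBcel235 (ce11), read 5′ to 3′ on the strand of the word, and the capitals mark E2F words. The hsp-60 and top-2 peaks held 2 each, and the second one of top-2 lies outside the bases shown.
hsp-60 and Y22D7AL.10, III:1619071-1619130, minus strand: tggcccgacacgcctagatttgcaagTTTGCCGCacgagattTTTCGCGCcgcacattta
Y53F4B.11 and Y53F4B.9, II:15010586-15010645, plus strand: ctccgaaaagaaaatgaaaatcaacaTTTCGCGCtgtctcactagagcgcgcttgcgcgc
cct-8 and Y55F3AR.2, IV:1094315-1094374, plus strand: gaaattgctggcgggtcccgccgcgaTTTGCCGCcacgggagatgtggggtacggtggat
top-2 and npp-3, II:11874851-11874910, plus strand: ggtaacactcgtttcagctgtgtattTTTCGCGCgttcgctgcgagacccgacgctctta
lin-54 and rpl-12, IV:13240730-13240789, minus strand: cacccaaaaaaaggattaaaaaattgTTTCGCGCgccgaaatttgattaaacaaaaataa
rbd-1 and T23F6.3, IV:12724794-12724853, plus strand: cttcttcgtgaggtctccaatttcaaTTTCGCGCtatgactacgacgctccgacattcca
efl-1 and fbxa-90, V:16965871-16965930, minus strand: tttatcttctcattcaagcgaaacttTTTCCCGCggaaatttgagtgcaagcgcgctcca

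The rule asked for starts on both strands but not that the genes point away from each other, so the orientation was counted first. The window reached farther upstream than downstream of a start, so the rule itself favoured this orientation, and the share is a description. In 214 of the 219 peaks (97.7%, 95% exact interval 94.8 to 99.3) the summit lay between 2 starts that faced away from it. In the other 5 peaks no such pair of starts enclosed the summit. These were the peaks of eef-1B.1 and aco-2, of mdt-26 and ift-43, of pus-1 and ctps-1, of glh-2 and C55B7.11 and of vps-25 and uba-2. In 11 of the 214 head-to-head peaks the summit had also passed a further annotated start. The 219 peaks were assigned to 448 distinct genes, with 2 genes at 205 peaks and 3 genes at 14. The pairs of mex-1 with W03C9.5 and of pdtf-1 with T26A8.4 had 2 such peaks each.

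In the head-to-head peaks the facing starts were a median of 518 bp apart (range 61 to 1659 bp, quartiles 353 to 781 bp). The summit was a median of 158 bp from the nearer start (quartiles 86.0 to 248 bp) and 364.5 bp from the farther one. It lay within 100 bp of the nearer start in 65 of 214 peaks (30.4%) and within 300 bp of it in 182 (85.0%). Both starts were within 300 bp in 88 peaks (41.1%). The median distance from the summit to the midpoint of the gap was 81.5 bp, and quartiles of that distance were 39.6 and 158.6 bp. The nearer start was on the minus strand in 89 peaks (41.6%, 95% exact interval 34.9 to 48.5). Strong peaks with starts on one strand had a median distance of 201.5 bp to their nearest start. Summits lay outside any protein-coding transcript in 189 of the 219 peaks between divergent genes (86.3%), against 295 of 410 peaks with starts on one strand (72.0%). The other summits between divergent genes fell in untranslated exon parts (14), introns (14) and coding exons (2). A summit upstream of starts on both strands tends to lie between genes, and it has starts on both sides to be near to. The differences from one-strand peaks in distance and placement thus follow in part from the rule and were not tested.

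**Figure D1:**
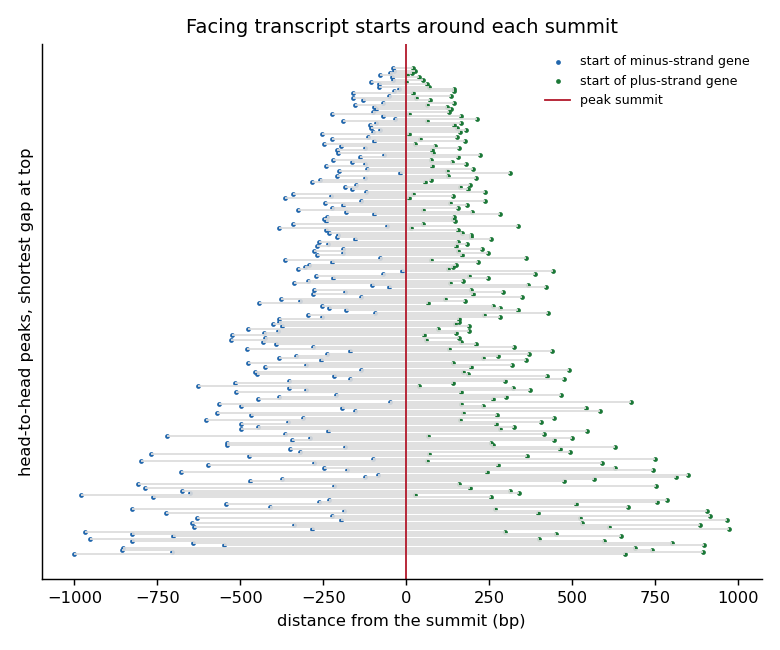
Each row is one of the 214 head-to-head peaks, ordered by the distance between the facing starts, with the shortest at the top. The horizontal axis gives the distance in bp from the summit (red line) to the start of the minus-strand gene (blue) and of the plus-strand gene (green); the starts were a median of 518 bp apart, and the nearer one lay a median of 158 bp from the summit.

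Across the autosomes 3018 pairs of protein-coding genes had opposite starts close enough for a summit to be in reach of both, and 231 of these pairs (7.65%) had a strong peak. The share varied with the distance between the starts. It was 8.25% for starts up to 249 bp apart (32 of 388 pairs, 95% exact interval 5.71 to 11.4) and 15.8% for starts 250 to 499 bp apart (86 of 545, 12.8 to 19.1). It was 9.94% at 500 to 749 bp (48 of 483) and 9.36% at 750 to 999 bp (35 of 374). At 1000 to 1499 bp it was 3.55% (22 of 619) and at 1500 to 2000 bp it was 0.734% (4 of 545). Under the rule, the length of DNA in reach of both starts first grows with their distance and then shrinks. Beyond 1000 bp only part of the gap is in reach. Each pair was placed by its smallest distance between starts, while a peak could be in reach through other starts. The bins are thus not comparable with each other, and the part of the rule in these shares was not tested.

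**Figure D2:**
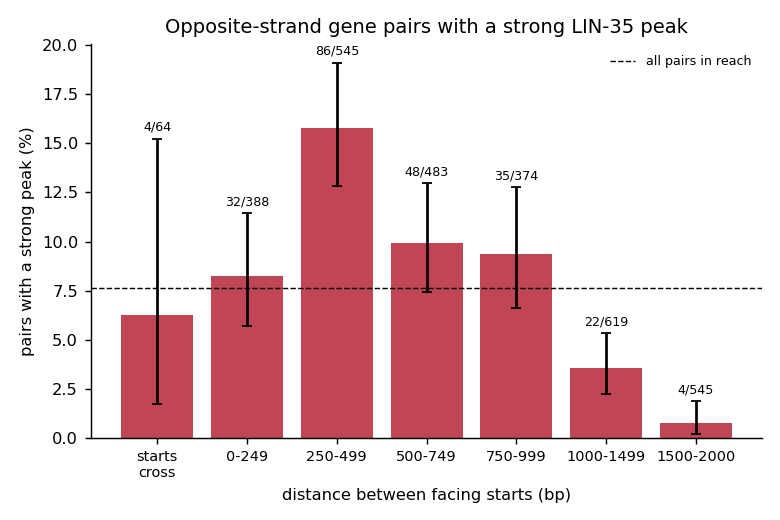
The bars give the percentage of opposite-strand pairs of autosomal protein-coding genes that had a strong peak in reach of both starts, by the distance between the starts in bp, with 95% exact intervals and the counts above. The dashed line is the 7.65% of all pairs, and the highest bar is the 15.8% at 250 to 499 bp. The length of DNA in reach of both starts differs between the bars.

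The pooled signal of the 219 peaks had a median of 28.02 (range 18.9 to 282, quartiles 23.5 to 40.6), against a median of 26.4 for strong peaks with starts on one strand. A replicate value is the signal of the highest peak in that replicate's own list that overlapped the pooled peak by at least 1 base. An overlapping peak was found in replicate 1 for 218 of the 219 and in replicate 2 for 203. The signal scale is not stated and replicates are not compared in size. Among the 1000 highest peaks of replicate 1 were 176 of the 219 (80.4%), and among the 1000 highest of replicate 2 were 133 (60.7%). Both held 102 (46.6%, 95% exact interval 39.8 to 53.4), against 159 of 410 peaks with starts on one strand (38.8%, 34.0 to 43.7) and 38.7% of all 1000 peaks. The pooled list was made from both replicates, so these shares describe it and were not tested. The authors' thresholded list, which comprises 550 peaks, held 141 of the 219 (64.4%), against 231 of the 410 (56.3%).

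The 102 peaks that ranked high in both replicates had a median pooled signal of 40.6. The 74 that ranked high in replicate 1 only had a median of 24.7, the 31 in replicate 2 only 23.02, and the 12 in neither 20.4. The pooled signal was made from both replicates, and the ranges of these sets overlapped. Over the 202 peaks with a value in both lists, Spearman's rho of the replicate signals was 0.243 and Pearson's r of their log2 values was 0.325, as a description across peaks of the same 2 samples.

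**Figure D3:**
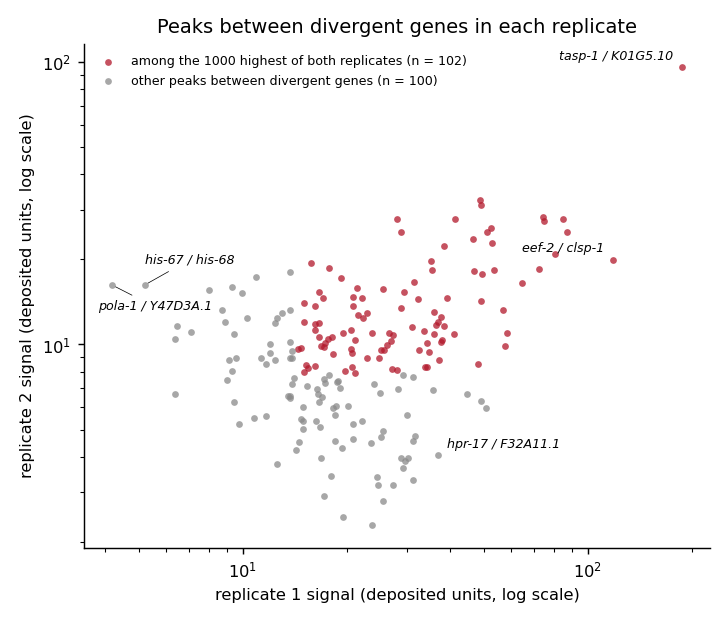
Each point is one of the 202 strong peaks between divergent genes with an overlapping peak in both replicates, plotted by its signal in replicate 1 and in replicate 2 in deposited units on log axes. Red points, 102 in number, were among the 1000 highest of both replicates and grey points were not; the peak of tasp-1 and K01G5.10 stands at the top right, and those of his-67 and his-68 and of pola-1 and Y47D3A.1 were low in replicate 1.

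The 20 strongest peaks of this kind were all among the 1000 highest of both replicates. The strongest was that of tasp-1, a threonine aspartase, and K01G5.10, with a pooled signal of 282 and values of 188 in replicate 1 and 96.0 in replicate 2. The next was that of eef-2, translation elongation factor 2, and clsp-1, the worm claspin, a replication checkpoint protein, at 136 pooled, 119 in replicate 1 and 19.96 in replicate 2. Its summit lay 10 bp from the eef-2 start and 255 bp from that of clsp-1. The peak of hsp-60, the mitochondrial chaperonin, and Y22D7AL.10 had 110 pooled, 85.0 in replicate 1 and 27.8 in replicate 2.

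The peak of rpl-15, a large-subunit ribosomal protein, and K11H12.8 had a pooled signal of 109, and that of rpl-20 and Y17G9B.5 had 94.7. The peak of rps-12, a small-subunit protein, lay between it and ska-3, a spindle and kinetochore protein, at 83.7. The peak of nol-58, a core protein of the nucleolar snoRNPs, and zip-4, a bZIP factor, had 82.4. The peak of rps-1 and ifet-1, an eIF4E-binding translational regulator, had 77.7. Those of rsr-1, an SR-related splicing protein, and sri-5, a predicted chemoreceptor, and of rbd-1, an RNA-binding protein of ribosome production, and T23F6.3 had 70.8 and 69.1.

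The peak of knl-3, a kinetochore protein of the Mis12 complex, and T10B5.3 had a pooled signal of 79.8. That of top-2, DNA topoisomerase II, and npp-3, a nuclear pore protein, had 76.2. The peak between lin-54 and rpl-12 had 75.5, with its summit 57 bp from the rpl-12 start and 336 bp from that of lin-54. The peak of set-16, an MLL-type histone methyltransferase, and drr-2 had 73.5, and that of lin-53, a histone-binding protein, and nra-2 had 70.2. Also among the 20 were the peaks of haf-3, an ABC transporter, and F57A10.2 (102), of Y53F4B.11 and Y53F4B.9 (101), of cct-8, a subunit of the cytosolic chaperonin, and Y55F3AR.2 (85.1), and of spe-48, a sperm gene, and Y51F10.11 (68.5).

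Genes were then counted in 28 lists of complexes and pathways. Of all 17242 autosomal protein-coding genes 2.6% had a strong peak between divergent genes, and of the 5497 with an opposite start in reach the share was 8.15%. The lists are read against these shares without a test. At least 1 gene of a list was present at 100 of the 219 peaks (45.7%). This is a share of peaks, with no such share of other peaks to set beside it.

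Of the 8 DREAM complex genes, all autosomal, 4 had such a peak out of 5 in reach of an opposite start. The lin-54 peak had a signal of 75.5 pooled, 52.7 in replicate 1 and 22.8 in replicate 2. For lin-53 the values were 70.2, 58.5 and 11.01, and for efl-1, the E2F subunit, they were 62.04, 46.9 and 18.2, in the same order. All 3 were among the 1000 highest of both replicates. The peak of lin-35 itself and vps-51 had 34.9 pooled, 20.9 in replicate 1 and 14.8 in replicate 2. Its summit lay 184 bp upstream of the lin-35 start. The transgene carries lin-35 sequence behind the mex-5 promoter, and its part in this value was not tested. The fifth gene in reach, lin-9, had its highest peak, at 76.0, in reach of starts on one strand only. The DP partner dpl-1 and the subunits lin-37 and lin-52 had no opposite start in reach, and their highest pooled peaks had signals of 9.79, 8.27 and 8.47.

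DNA replication genes had such a peak at 9 of 39 genes, 25 of them in reach. Beside top-2 they were led by rfc-4, a subunit of the clamp loader, which shared its peak with the translation elongation factor gene eef-1A.1 at 49.7 pooled, 37.6 in replicate 1 and 12.5 in replicate 2. The licensing factor gene cdc-6, with acin-1, had 46.8, 29.4 and 15.4 in the same order. The replisome gene ctf-4, with the elongation factor gene eef-1G, had 28.8, 25.2 and 4.70 and was not among the highest 1000 of both replicates. The helicase gene mcm-7, tim-1, sld-2, the origin recognition gene orc-5 and the primase gene pri-2 had pooled signals of 21.1 to 26.9. Among these 5, sld-2 had no overlapping peak in replicate 2. The list is not complete, and mcm-10 (24.4) and the polymerase alpha gene pola-1 (20.5), which are not in it, also had such a peak.

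Mitosis and kinetochore genes had a strong peak between divergent genes at 12 of 64 listed genes, 48 of them in reach; ska-3, with the peak of 83.7, is not in the list. After knl-3, the highest of the listed genes, came hcp-4, the worm CENP-C, with the glycolytic gene pgk-1, at 46.6 pooled, 17.8 in replicate 1 and 18.6 in replicate 2. The securin gene ify-1 shared its peak with the ribosomal protein gene rpl-22 at 46.3, 33.4 and 11.2. The kinetochore gene kbp-4 shared one with rab-18 and the polarity gene par-2 at 46.2, 37.8 and 10.4. The checkpoint gene mdf-2, the centriole gene sas-5, cls-2, zwl-1, the midzone gene spd-1 and the kinesin gene bmk-1 had pooled signals of 29.6 to 39.9 and were all among the highest of both replicates. The centrosome gene spd-5 (27.8) and the checkpoint gene rod-1 (20.4) were not. Some of these starts were far from the summit. It lay 981 bp from the spd-1 start and 26 bp from that of its partner Y34D9A.3. For cls-2 and its partner R107.5 the distances were 973 and 285 bp. Cyclin and cell cycle kinase genes had 2 of 19, 8 of them in reach, namely cyb-1 with orc-5 (24.2) and cdk-1 with the germline translation factor gene iff-1 (22.1). The cyclin genes cye-1 and cyb-3 also lay between divergent genes, at lower-ranked peaks of 17.4 and 14.6.

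**Figure D4:**
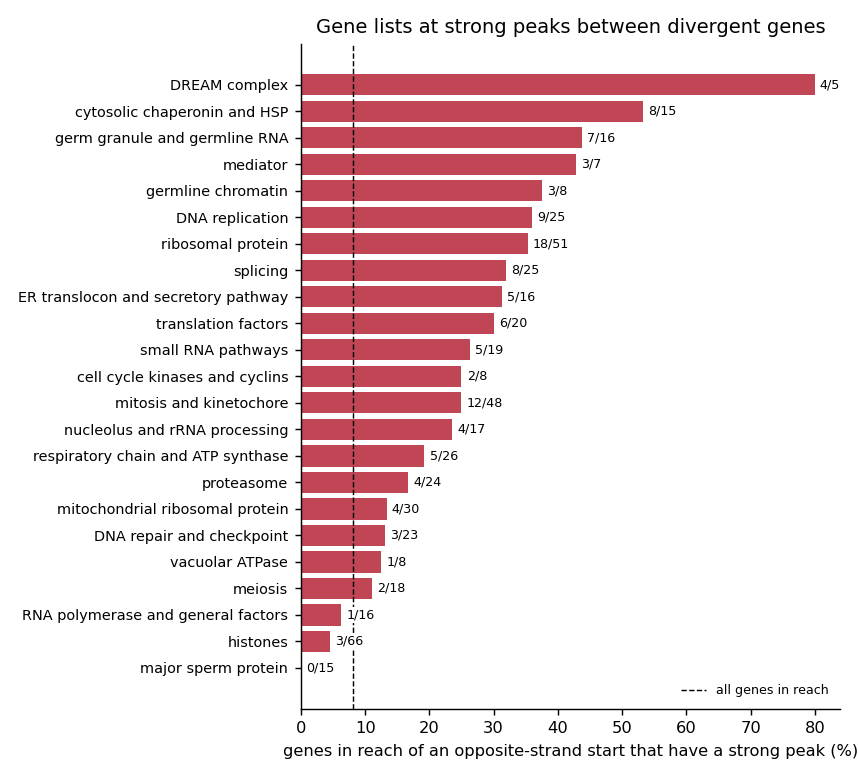
Bars give, for each list with at least 5 genes in reach of an opposite-strand start, the percentage of those genes with a strong peak between divergent genes, with the counts beside them. The dashed line is the 8.15% of all genes in reach; DREAM, chaperonin and germ granule genes lie at the top, at 4 of 5, 8 of 15 and 7 of 16, and major sperm protein genes at the bottom, at 0 of 15.

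Protein synthesis was represented by 18 of 76 ribosomal protein genes, 51 of them in reach, at 17 peaks. Their pooled signals ran from 21.6 for rps-26 to 109 for rpl-15, with a median of 46.3 over the 17 peaks, and 14 of the 17 (82.4%) were among the highest of both replicates. The rps-1 peak had 53.4 in replicate 1 and 18.3 in replicate 2, and the rps-12 peak had 48.9 and 32.4. The genes rpl-24.1 and rps-10 faced each other across a single peak of 35.3. Translation factors had such a peak at 6 of 35 genes, 20 of them in reach. Beside eef-2 and eef-1A.1 these included iff-2, the eIF5A gene, with F54C9.14 at 56.1 pooled, 27.9 in replicate 1 and 27.8 in replicate 2.

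Chaperonin and heat shock protein genes had a strong peak between divergent genes at 8 of 22 genes, 15 of them in reach. The cct-8 peak had 64.5 in replicate 1 and 16.5 in replicate 2. The hsp-90 gene, with C47E8.4, had 67.2 pooled, 49.3 in replicate 1 and 17.7 in replicate 2. The cct-1 gene, with mig-5, had 53.0, 44.8 and 6.69 and was not among the highest of replicate 2. Genes for subunits of the same chaperonin thus had different signals. The genes cct-7 and cct-5 had such a peak at 33.6 and 22.3, whereas cct-4 and cct-6 lay between divergent genes at lower-ranked peaks of 6.47 and 12.5.

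Germ granule and germline RNA genes had a strong peak between divergent genes at 7 of 33, 16 of them in reach, with a median pooled signal of 26.2 over their 8 peaks. The first was mex-5, an RNA-binding polarity gene, which shares its gap with the meiotic cohesin gene rec-8, at 36.7 pooled, 15.8 in replicate 1 and 19.4 in replicate 2. The transgene carries the mex-5 promoter, so extra copies of this sequence were present in the worms, and their part in the value was not tested. The maternal translational regulator spn-4, with spe-39, had 34.1, 31.2 and 3.33. The gene mex-1 had 2 such peaks. The one with W03C9.5 and rab-7, its summit 907 bp from the mex-1 start, had 27.3, 16.2 and 11.3. The other, with W03C9.5 and 267 bp from the mex-1 start, had 27.3, 22.2 and 5.35. It was not among the highest of both replicates. The gene nos-3, a Nanos relative, with Y53C12B.1 had 25.1, 16.7 and 10.7. Small RNA genes had 5 of 32, 19 of them in reach. The listed ones were led by the nuclear RNAi gene nrde-2 with atad-3 (37.8) and the mutator gene mut-15 with fib-1, the fibrillarin gene (34.6). That list is not complete, and simr-1 (46.3) and alg-5 (29.2), which are not in it, also had such a peak. Listed meiosis genes had 2 of 30, 18 of them in reach, namely rec-8 and the cohesin gene coh-3. The gene syp-6 (23.1), which is not in that list, also had such a peak. Germline chromatin genes had 3 of 19, 8 of them in reach, namely mrg-1 (34.1), set-26 (25.1) and ash-2 (22.9).

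Among other general lists, splicing had 8 of 39 genes, with the SR protein genes rsp-2 and rsp-1 facing each other across a peak of 50.8 and rsp-5 facing the Sm protein gene snr-3 across one of 28.02. The endoplasmic reticulum and secretory list had 5 of 27, with trap-3 facing sec-61.B at 26.4. The respiratory chain list, which lacks some genes of complex I, had 5 of 44, among them atp-1 with mcrs-1 (33.5), which had no overlapping peak in replicate 2. Of complex I genes outside that list, nduv-3 shared the mdf-2 peak (39.9), and ndua-8 (30.5), nduc-2 (29.7) and ndub-8 (24.5) were also at strong peaks. The nucleolar list had 4 of 28, the proteasome 4 of 33, led by rpn-3 facing hsp-110 (41.8), and the mediator 3 of 19. The list of DNA repair and checkpoint genes had 3 of 34, led by hpr-17 with F32A11.1 (35.5). That list is not complete, and the checkpoint gene clsp-1 (136), which is not in it, also had such a peak. Mitochondrial ribosomal proteins had 4 of 70, led by mrps-7 (26.2). Tubulins had 1 of 10, the vacuolar ATPase 1 of 17 and the RNA polymerases with general factors 1 of 46. Histones had 3 of 77, 66 of them in reach, with the variant gene htz-1 and wapl-1, a cohesin release factor, at 52.6. Of the genes in reach, histones (4.55%) and RNA polymerases with general factors (6.25%) had shares below the 8.15% of all genes in reach. The other general lists, from splicing to the vacuolar ATPase, had 12.5% to 42.9%. Histone genes lie in near-identical copies, so reads there may be shared between loci. Marker lists of muscle, intestine, neurons and cuticle had 0 of 10, 0 of 9, 0 of 17 and 0 of 13, but of these genes only 1, 3, 1 and 3 were in reach of an opposite start. Major sperm protein genes, 15 of them in reach, had 0 of 31.

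At 19 of the 219 peaks (8.68%) list genes stood on both sides, again with no such share of other peaks to set beside it. Some faced a gene of the same process, as in rsp-2 and rsp-1, rpl-24.1 and rps-10, and trap-3 and sec-61.B. Others joined a cell cycle or meiotic gene with a gene of protein synthesis or another process, as in lin-54 and rpl-12, rfc-4 and eef-1A.1, ify-1 and rpl-22, ctf-4 and eef-1G, and cdk-1 and iff-1. At these peaks, as at all 219, the data cannot assign the signal to one of the genes.

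The sequence around the summit was not used to choose the peaks and could be tested. An E2F string was found in 39 of the 219 peaks between divergent genes (17.8%, 95% exact interval 12.98 to 23.5), against 56 of 410 strong peaks with starts on one strand (13.7%, 10.5 to 17.4) and 4.17% of all autosomal pooled peaks. Against the one-strand peaks the odds ratio was 1.37 (95% interval 0.851 to 2.19) and two-sided Fisher's exact test adjusted over 4 strings gave p = 0.676, so a difference was not detectable. With the rule applied to replicate 2's own list in place of the pooled one, the shares were 20.7% and 10% (Fisher's exact test, adjusted p = 0.00402). Over all alternatives the adjusted p ran from 0.00402 to 1. All peaks come from the same 2 samples, so the tests describe these lists.

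The other strings also gave no detectable difference from the one-strand peaks. A CHR-like string (TTCGAA or TTTGAA on either strand) was present in 134 of 219 peaks (61.2%) against 268 of 410 (65.4%), with an odds ratio of 0.836 (0.587 to 1.19, exact test, adjusted p = 0.676). All autosomal pooled peaks had one in 56.5% and the 201 bp upstream of all autosomal genes in 57.4%, so this short string is frequent everywhere. The word TCTGCGTC was present in 16 of 219 (7.31%) against 31 of 410 (7.56%), with an odds ratio of 0.964 (0.480 to 1.87, exact test, adjusted p = 1) and a share of 1.97% over all autosomal pooled peaks. The repeat GAGAGAGA was present in 7 of 219 (3.20%) against 18 of 410 (4.39%), with an odds ratio of 0.719 (0.250 to 1.84, exact test, adjusted p = 0.703) and 2.22% over all autosomal pooled peaks. No word of one string contains a word of another.

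Peaks with the same placement but a lower rank gave a second comparison, chosen after the data had been seen. The E2F string was present in 17.8% of the 219 strong peaks, against 58 of 1056 lower-ranked autosomal peaks with starts on both strands (5.49%, 4.20 to 7.04). The odds ratio was 3.72 (95% interval 2.34 to 5.88), and Fisher's exact test adjusted over 4 strings gave p = 8.67e-08. GC content within 100 bp of the summit differed as well, with a median of 39.8% in the strong peaks, 35.8% in the lower-ranked ones and 38.3% in the one-strand peaks. With both sets limited to summits of 35 to 45% GC, the E2F string was present in 17.3% against 6.57% (odds ratio 2.97, exact test, adjusted p = 0.00238). Over all alternatives of this comparison the odds ratio ran from 2.33 to 4.33 and the adjusted p from 6.56e-11 to 0.0176.

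The word TCTGCGTC was also more frequent in the strong peaks, at 7.31% against 29 of 1056 (2.75%), with an odds ratio of 2.79 (1.39 to 5.42, exact test, adjusted p = 0.00429). The call by the exact test was lost with GC limited to 35 to 45% (6.30% against 4.03%, adjusted p = 0.611) and in replicate 1's own list (4.81% against 3.22%, adjusted p = 0.589), and over all alternatives the adjusted p ran from 2.12e-05 to 0.611. The CHR-like string, at 61.2% against 58.6%, had an odds ratio of 1.11 (0.818 to 1.52, exact test, adjusted p = 0.498), and GAGAGAGA, at 3.20% against 1.70%, had an odds ratio of 1.90 (0.663 to 4.85, adjusted p = 0.234).

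By rank of the pooled signal, E2F strings were present in 22.7% of the peaks between divergent genes at ranks 1 to 250, in 15.9% at ranks 251 to 500 and in 15.6% at ranks 501 to 1000. The share was 14.7% at ranks 1001 to 2000, 5.11% at ranks 2001 to 5000, 3.63% at ranks 5001 to 10000 and 4.50% beyond. The rank limit of 1000 thus fell inside a stretch of similar shares, and the lower values began past rank 2000. Median GC content moved along with it, at 41.3%, 40.8%, 38.1%, 36.3%, 36.8%, 35.3% and 34.8% in these bins, and its part in the trend was not tested.

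**Figure D5:**
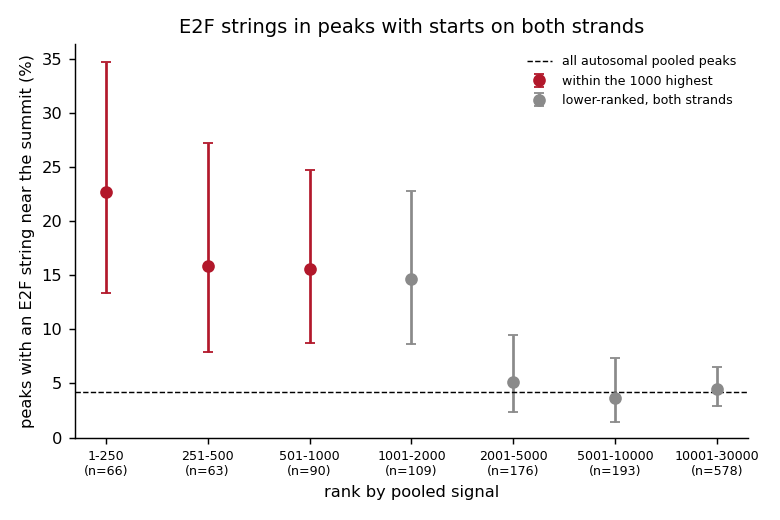
Points give the percentage of autosomal peaks with starts on both strands that held an E2F string within 100 bp of the summit, by rank of pooled signal, with 95% exact intervals. The red points are the 219 strong peaks and the grey points the 1056 lower-ranked ones; the dashed line is the 4.17% of all autosomal pooled peaks.

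The 39 strong peaks with an E2F string held 42 matches, 14 of TTTCCCGC, 14 of TTTCGCGC, 7 of TTTGCCGC and 7 of TTTGGCGC. The nearest match was a median of 30.5 bp from the summit (quartiles 12.5 to 64 bp), and 23 of the 39 had one within 50 bp. In the cct-8 peak shown above the word was centred 0.5 bp from the summit, and in the efl-1 peak 2.5 bp from it. Of the 39, 27 (69.2%) also held a CHR-like string, against 107 of the 180 without an E2F string (59.4%). The 39 had a median pooled signal of 32.5 against 28.01 and a median GC content of 42.3% against 39.8%. Of these 39, 21 (53.8%) were among the highest of both replicates, against 81 of 180 (45%).

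E2F strings were also counted by gene list. They were present in 12 of the 26 strong peaks with a gene of the DREAM, replication, mitosis or cyclin lists (46.2%), namely in 3 of 4 DREAM peaks, 3 of 9 replication peaks, 5 of 12 mitosis peaks and 1 of 2 cyclin peaks. Of the 17 ribosomal protein peaks 1 had one (5.88%), and that was the peak shared by rpl-12 and lin-54. Translation factor peaks had 3 of 6, at eef-2, eef-1B.1 and iff-1, and the last of these is shared with cdk-1. Chaperonin and heat shock peaks had 2 of 8, at hsp-60 and cct-8. Peaks with no list gene had 17 of 119 (14.3%). The CHR-like string was present in 19 of the 26 cell cycle peaks (73.1%) and in 12 of the 17 ribosomal protein peaks (70.6%). These are counts in small lists beside the 17.8% and 61.2% of all 219 peaks, and they were not tested.

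Among the highest of both replicates were 20 of the 26 cell cycle peaks (76.9%), 14 of the 17 ribosomal protein peaks and 43 of the 119 peaks without a list gene (36.1%), with median pooled signals of 35.5, 46.3 and 26.999. Signal is part of the rule, so these values describe the peaks only.

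The 219 peaks were distributed over all 5 autosomes. Chromosome III had 59 of them, and 66 of its 508 opposite-strand pairs in reach had a strong peak (12.99%, 95% exact interval 10.2 to 16.2). Chromosome I had 51 peaks and a share of 9.42% (52 of 552 pairs), chromosome II had 39 and 6.63%, and chromosome IV had 35 and 6.08%. Chromosome V had 35 peaks and a share of 4.91% (39 of 794 pairs, 3.52 to 6.65). Non-coding genes or pseudogenes lay within 100 bp of the summit in 23 of the 219 peaks (10.5%), against 37 of the 410 peaks with starts on one strand (9.02%). For tRNA, snoRNA, snRNA, miRNA and rRNA genes these counts were 4 (1.83%) against 18 (4.39%).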

How the data were processed

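ChIP-seq peak lists from 2 samples, replicates 1 and 2 of one group per the labels, were used on build ce11. Signal values come from the deposited lists, where the authors give 1 per peak on an unstated scale, and served to rank peaks. The deposited lists also hold the −log10 of a q-value, which ran from 2.56 to 3.04 in the 219 peaks and was not used further. Per the deposited text notes, replicate and pooled lists contain background and were made with a control library. They hold 30000 (pooled), 30000 (replicate 1), 18226 (replicate 2) and 550 (thresholded) lines. The sources used here do not give the aligner, the peak caller or the threshold. Lists on build ce10 were not used here.

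Summits were set against 29326 distinct starts of 19985 protein-coding genes (WBcel235, Ensembl release 115), and sequences were read from the RefSeq WBcel235 genome. Coordinates are 1-based. Strings were sought on both strands and compared by two-sided Fisher's exact test with Benjamini-Hochberg adjustment over 4 strings and a threshold of 0.05. Intervals are exact (Clopper-Pearson, 95%) and cover the counting of peaks or pairs only. Of the listed gene symbols, 20 matched no annotated gene. Genes named are those of the 20 highest peaks, of which 1 is not reported here, up to 4 of highest signal in each list, the peaks next to the rank limit and the peaks with E2F words. Others, such as further list members, the 5 peaks not head to head, pola-1, mcm-10, ska-3, the complex I genes, the lower-ranked chaperonin and cyclin genes and peak partners, were picked once their values had been seen. The peaks and the gene lists were chosen with earlier results of these data known. Alternatives were other promoter windows, rank limits, starts, motif windows, orientation, repeats and each replicate's own list. The scripts were tested on simulated data. Python 3.11.15, numpy 2.4.6, pandas 2.3.3, scipy 1.17.1 and matplotlib 3.10.9 were used.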

Additional observations from a re-analysis of the deposited data

How the results depend on the processing

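No paired analysis was possible because all samples belong to 1 group. Depth is unknown, so no limit of detection can be given. The number of peaks was 141 at ranks 1 to 550, 328 at ranks 1 to 2000, and 169 to 208 from single replicates' lists. The head-to-head share was 92.8% with one start per gene, 93.2% with the window of 2000 bp and 500 bp, and 94.1% to 95.2% from single replicates' lists. The share among both replicates' highest peaks was 28.3% with 550 peaks of each, 92.2% with whole lists, 31.7% at ranks 1 to 2000 and 66.7% at ranks 1 to 550.

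Odds ratios against one-strand peaks crossed 1 as follows. For E2F they were 0.954 with the window of 500 bp and 100 bp and 0.982 with GC of 35 to 45%, an alternative chosen after seeing the data, and 1.39 to 2.35 from single replicates' lists. For CHR-like strings they were 1.28 at ranks 1 to 2000 and 0.843 to 1.13 from single replicates' lists. For TCTGCGTC they were 1.10 with a 50 bp motif window, 1.05 with one start per gene, 1.06 at ranks 1 to 2000, 1.10 at ranks 1 to 550, 1.14 with the wider and 1.12 with the narrower promoter window, and 0.670 to 1.13 from single replicates' lists. None of these but the E2F value of 2.35 passed the threshold.

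Against lower-ranked peaks, by the same exact test, the CHR-like ratio was 0.965 with a 50 bp motif window and 0.987 with the narrower promoter window, that of GAGAGAGA was 0.847 with the narrower and 2.66 (adjusted p = 0.0117) with the wider one, and that of TCTGCGTC was 1.60 with GC of 35 to 45% and 1.52 to 4.33 from single replicates' lists. The E2F ratio kept its direction and stayed past the threshold in all 11 alternatives. The cause of these shifts was not tested.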

Other observations

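The 16 strong peaks with TCTGCGTC were led by that of set-16 and drr-2 (pooled signal 73.5) and that of efl-1 and fbxa-90 (62.04), which also held an E2F string. The nearest match was a median of 29.5 bp from the summit, and 14 of the 16 had one within 50 bp (87.5%), against 24 of the 31 one-strand peaks with this word (77.4%). Among the others were the peaks of nol-10, a nucleolar gene, and cec-5 (33.9), of his-67 and his-68 (29.2), of let-99, a spindle position gene, and hsb-1 (28.9), and of F44E5.4 and F44E5.5 (22.4).

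Of the strong peaks between divergent genes, 31 were among the 1000 highest of replicate 2 and not among those of replicate 1. The values of some follow, on an unstated scale that is not compared between the lists. The peak of pola-1, the catalytic subunit of DNA polymerase alpha, and Y47D3A.1 had 16.2 in replicate 2 and 4.19 in replicate 1. The peak of his-67 and his-68 had 16.3 and 5.21, that of rab-5, an endosomal GTPase, and nmat-2 had 16.03 and 9.31, and that of spd-5 and npp-6 had 15.5 and 8.01, in the same order. The peak of vps-18 and T12C9.7 had no overlapping peak in replicate 1.

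The share of opposite-strand pairs with a strong peak was 7.38% in the central 50% of the autosomes by length (131 of 1776 pairs) and 8.05% in the outer parts (100 of 1242). On chromosome III it was 10.3% and 17.3%, and on chromosome V it was 6.36% and 3.11%, in the same order. None of these differences was tested.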
